A study of Mus musculus with 6 samples.

Results

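The genes of the cytosolic ribosome were compared between microglia-enriched and total hippocampal RNA. Members were the protein-coding rows of the table whose symbols are those of large (Rpl) or small (Rps) subunit proteins, including Rplp0, Rplp1 and Rplp2. Rps6k kinases and rows named as pseudogenes (ending in -ps, with or without a number) were left out. This gave 82 genes of 15388 in the table, 49 with Rpl and 33 with Rps symbols, and all 82 passed the filter on low values. The symbol rule also takes in paralogs and 1 binding partner that are not core subunits, Rpl7l1, Rpl22l1, Rpl36al, Rps27l, Rps27rt and Rps19bp1.

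The mice were Cx3cr1-cre/ERT2+; NuTRAP+. In this model a tamoxifen-inducible Cre under the Cx3cr1 promoter, which is active in microglia and related macrophages, switches on NuTRAP. NuTRAP places EGFP, fused to the large-subunit protein L10a, on the ribosomes of the recombined cells. Tamoxifen was given on 5 days at about 3 months of age. In translating ribosome affinity purification (TRAP), hippocampal homogenate was cleared, part was kept as Input, and ribosomes pulled down with anti-GFP antibody gave the Positive fraction. Both fractions carried the same alleles and tamoxifen treatment, and came from 3 animals, numbered 201, 207 and 208, with 1 library of each fraction per animal. Summed over the genes of the table, libraries held 14879734 to 17757918 reads, of which 90591 to 125323 were listed under the members. Shares of reads are given of these sums. Reads carried no molecular identifiers.

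The ribosome is built from a small 40S subunit, which reads the mRNA, and a large 60S subunit, which joins amino acids. Ribosomal protein mRNAs are among the most abundant in most cells. Many start with a run of pyrimidines, the 5′ terminal oligopyrimidine tract, through which mTORC1 and LARP1 control their translation together. TRAP pulls down tagged ribosomes with the mRNAs bound to them, whereas Input holds free and bound RNA of all cell types. Markers of other cell types were detected in the Positive fraction as well, and their values are given with the cell type markers.

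Ribosomal protein mRNAs were on the whole lower in the Positive fraction. Of the 82 members, 43 were lower and 4 higher in Positive, and 35 did not pass the test (edgeR quasi-likelihood test, Benjamini-Hochberg adjusted p-value under 0.05, n = 3 per fraction). Across all 15344 genes tested, 22% were lower and 24% higher. Past the study's general fold limit for differential expression, 25% above or 20% below Input, 40 members were lower and 3 higher, against 19.3% and 20.5% of all genes. For marker genes of the Positive fraction the study used a higher fold limit. The median log2 fold change of the members was -0.28, or 82.4% of the Input level, and that of all genes was -0.01. In single animals the median of the members was -0.28 in 201, -0.29 in 207 and -0.29 in 208. The fractions differ both in cell type and in ribosome binding, so a lower mRNA level in the tagged cells and less binding to their ribosomes cannot be told apart. In bulk RNA, fewer cells of a type and less RNA per cell cannot be told apart either.

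Per gene, the libraries of the fractions often did not overlap. In 49 members all 3 Positive libraries lay below all 3 Input libraries, and in 5 all lay above. Over all genes this held for 27.6% and 28.9%. In 55 members Positive was below Input in each of the 3 animals, and in 8 it was above. Over all genes this held for 35.6% and 34.9%. Most calls held across fits. In all of 14 fits, with other scalings, filters, tools, the animal as a block and single libraries left out, 35 members were lower each time and 2, Rpl7 and Rpl7l1, were higher each time. Only these 2 were higher without the Input library of 207, without that of 208 or without the Positive library of 207.

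**Figure D1:**
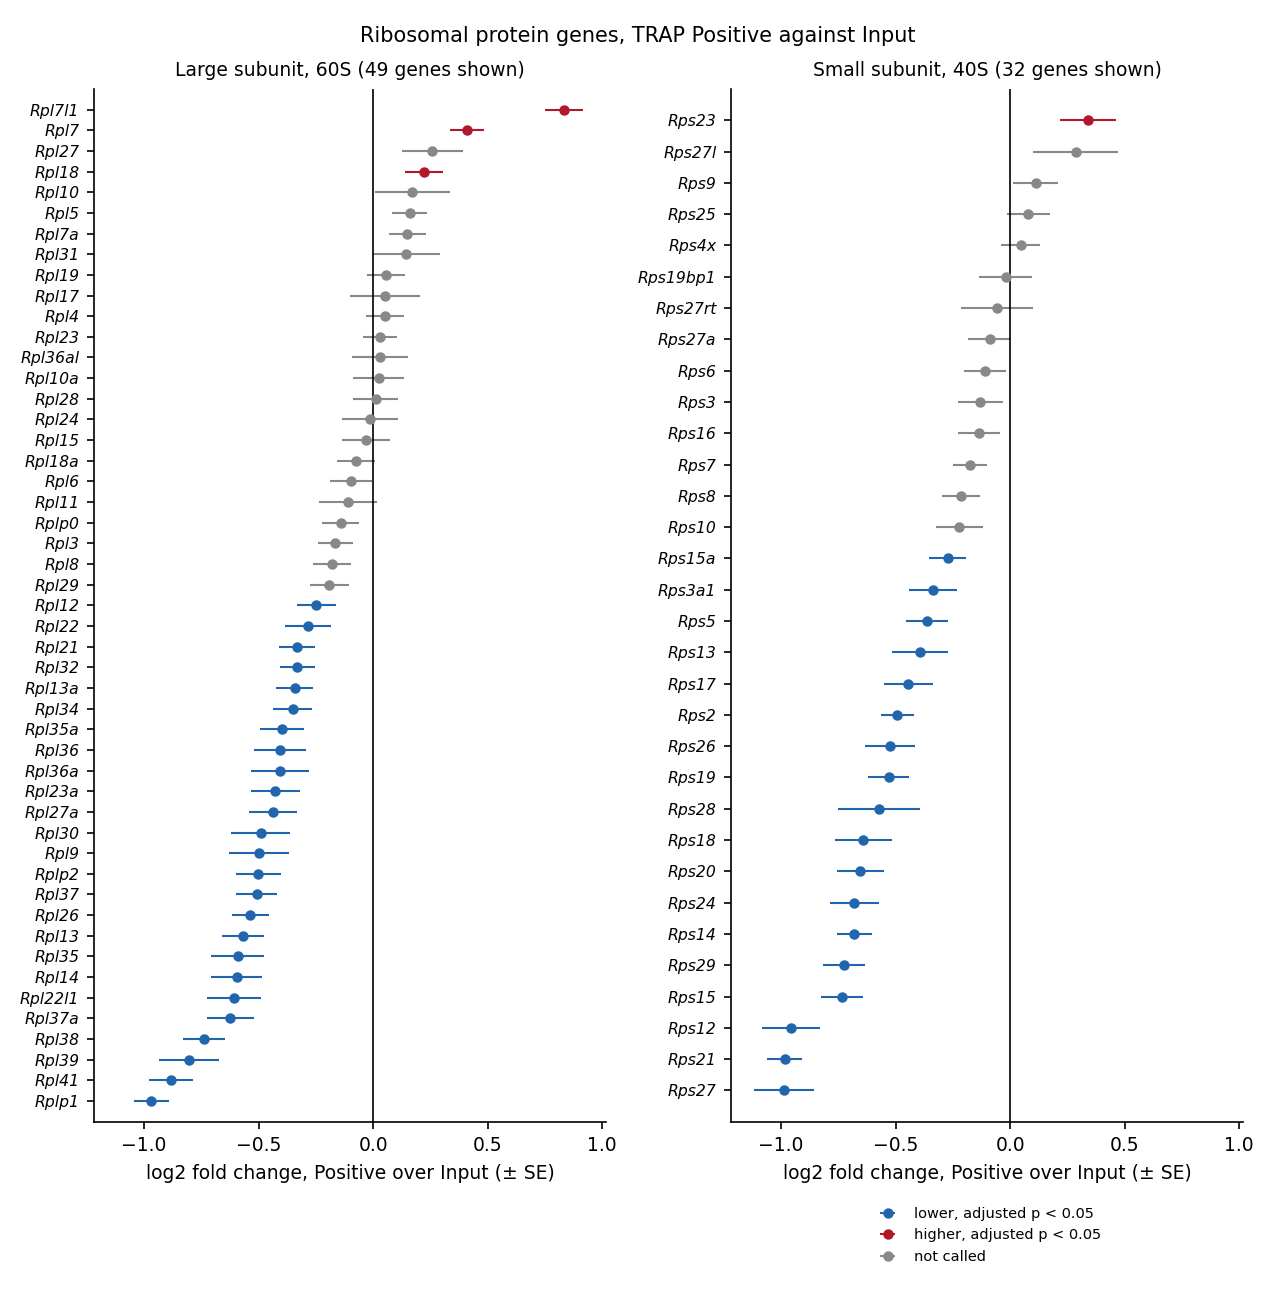
Log2 fold change (Positive over Input, ± SE of the fit, x axis) of 81 ribosomal protein genes, by subunit. The 43 blue genes were called lower, the 4 red genes higher and the 34 grey genes neither, and the values run from -0.99 (Rps27) to 0.83 (Rpl7l1).

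The members also took a smaller share of the library. They held 0.684%, 0.760% and 0.738% of all reads listed in the table for the Input libraries of animals 201, 207 and 208. In the Positive libraries they held 0.574%, 0.600% and 0.571%. All Positive values were below all Input values, with a difference of -0.146 ± 0.031 percentage points (SD over animals, n = 3). An exact two-sided permutation test gave p = 0.1, the smallest value that 3 against 3 libraries allow.

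**Figure D2:**
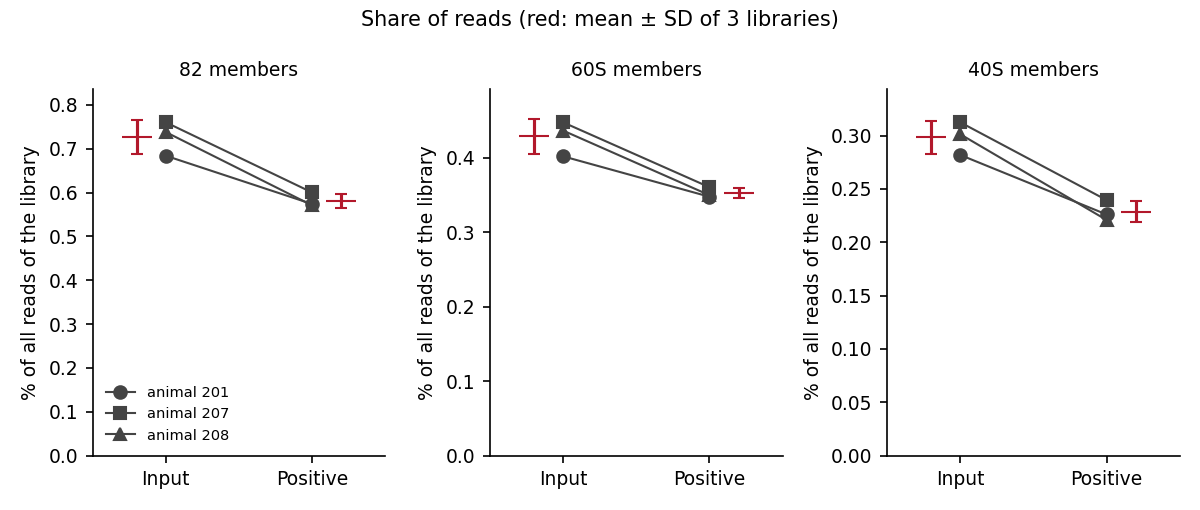
Percent of all reads of a library over the genes of the table (y axis, from 0) listed under all members, the 60S members and the 40S members. Lines join the Input and Positive library of an animal, and red bars give mean ± SD. Every line falls, for all members from 0.727 ± 0.039% in Input to 0.582 ± 0.016% in Positive.

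Both subunits showed the pattern. Of the 49 members with Rpl symbols, 25 were lower and 3 higher, with a median log2 fold change of -0.25. Of the 33 with Rps symbols, 18 were lower and 1 higher, with a median of -0.34. The difference between subunits was not tested. The share of reads went from 0.429 ± 0.024% to 0.353 ± 0.007% for the 60S members and from 0.299 ± 0.015% to 0.229 ± 0.010% for the 40S members (SD, n = 3).

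Members differed widely from each other, and the 6 lowest were at 50.5% to 57.3% of their mean Input level. Several of these encode the shortest proteins of the ribosome. Their coding sequences are shown because coding length is compared with the fold changes further on. They were cut from the GENCODE M21 transcript models, with start and stop codons in capitals.
Rpl41: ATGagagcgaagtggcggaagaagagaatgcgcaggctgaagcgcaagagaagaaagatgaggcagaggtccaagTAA
Rpl39: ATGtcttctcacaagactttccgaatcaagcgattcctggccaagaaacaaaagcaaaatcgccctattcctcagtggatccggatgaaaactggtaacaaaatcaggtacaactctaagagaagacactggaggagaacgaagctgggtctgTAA
Rps21: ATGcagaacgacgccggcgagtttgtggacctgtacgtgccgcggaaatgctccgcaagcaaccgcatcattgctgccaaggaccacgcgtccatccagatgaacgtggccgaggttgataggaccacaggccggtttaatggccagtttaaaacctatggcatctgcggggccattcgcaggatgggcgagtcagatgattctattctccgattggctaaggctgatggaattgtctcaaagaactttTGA
Rps27: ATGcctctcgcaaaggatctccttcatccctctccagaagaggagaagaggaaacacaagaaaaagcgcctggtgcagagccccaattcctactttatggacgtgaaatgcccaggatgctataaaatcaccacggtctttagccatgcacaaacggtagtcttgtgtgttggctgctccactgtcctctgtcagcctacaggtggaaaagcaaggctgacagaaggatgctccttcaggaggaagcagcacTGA
With the stop codon these sequences run from 78 bases (Rpl41, 25 residues) over 156 (Rpl39) and 252 (Rps21) to 255 bases (Rps27, 84 residues).

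Rps27 (chromosome 3, 90212522 to 90213651, minus strand, mm10), a zinc-binding protein of the 40S subunit, had 311, 352 and 378 scaled reads in the Input libraries of animals 201, 207 and 208. Scaled reads are reads divided by the size factor of the library. In the Positive libraries Rps27 had 171, 185 and 169 scaled reads. The fractions did not overlap, and the log2 fold change was -0.99 ± 0.13 (SE, edgeR adjusted p-value 5.3e-05). Of its 42-base words, 99.7% also occur elsewhere in the genome, so reads of Rps27 could have been split with its copies and its value is uncertain.

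Rps21 (chromosome 2, 180257377 to 180258445, plus strand), another small 40S protein, had 1783, 1923 and 1920 scaled reads in Input and 923, 967 and 956 in Positive. All 3 Positive libraries were near the same level, at 50.6% of the Input mean, and the log2 fold change was -0.98 ± 0.08 (SE, edgeR adjusted p-value 3.4e-07).

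Rplp1 (chromosome 9, 61913284 to 61914542, minus strand) encodes an acidic protein of the ribosomal stalk, which calls elongation factors to the ribosome. It had 3148, 3376 and 3088 scaled reads in Input and 1688, 1670 and 1551 in Positive. The values did not overlap, and the log2 fold change was -0.97 ± 0.08 (SE, edgeR adjusted p-value 4.1e-07). Its stalk partner Rplp2 had 1202, 1538 and 1417 scaled reads in Input and 916, 1033 and 986 in Positive, a log2 fold change of -0.50 (edgeR adjusted p-value 0.0011). Rplp0, the base on which the stalk is built, had 2443, 2642 and 2493 in Input and 2256, 2490 and 2128 in Positive, with overlapping values and a log2 fold change of -0.14 (edgeR adjusted p-value 0.17). Rplp0 passed the test under total count scaling (log2 fold change -0.22, adjusted p-value 0.040). The difference within the stalk was not tested.

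Rps12 (chromosome 10, 23785183 to 23787275, minus strand), a protein of the 40S head, had 341, 391 and 366 scaled reads in Input and 181, 206 and 179 in Positive, a log2 fold change of -0.96 ± 0.13 (SE, edgeR adjusted p-value 5.4e-05). Rpl41 (chromosome 10, 128548114 to 128549305, minus strand), the shortest protein of the ribosome, had 3215, 4195 and 3989 in Input and 2073, 2113 and 1995 in Positive, a log2 fold change of -0.88 ± 0.10 (SE, edgeR adjusted p-value 9.7e-06). Rpl39 (chromosome X, 37082520 to 37085402, minus strand), which lines the exit tunnel of the growing chain, had 424, 588 and 530 in Input and 284, 312 and 287 in Positive, a log2 fold change of -0.80 ± 0.13 (SE, edgeR adjusted p-value 0.00029). In Rpl41 and Rpl39 the Input library of animal 201 was the lowest of the Input libraries, and the Positive libraries were still below it.

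**Figure D3:**
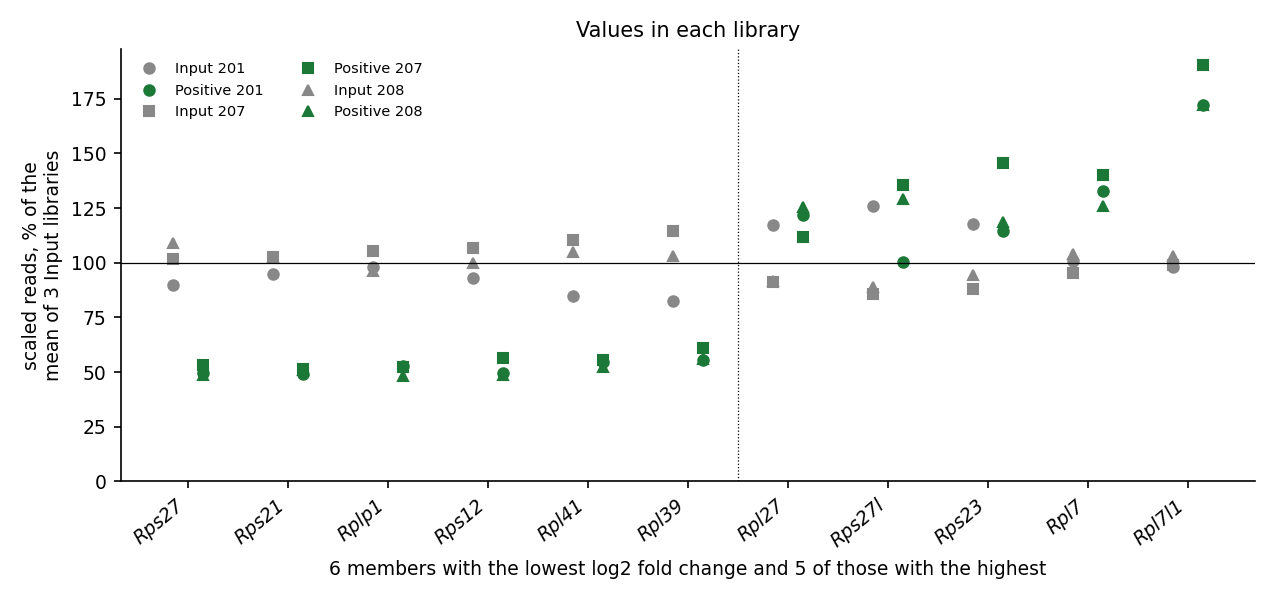
Scaled reads in each library as percent of the mean of the 3 Input libraries of that gene (y axis, from 0), for the 6 members with the lowest log2 fold change and 5 of those with the highest (x axis). Grey Input and green Positive points are apart in all 6 genes on the left and in Rpl7 and Rpl7l1, and overlap in Rpl27, Rps27l and Rps23.

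A few members were higher in Positive. Rpl7l1 (chromosome 17, 46773907 to 46782656, minus strand), a paralog of Rpl7 known from the assembly of the large subunit, had 710, 716 and 744 scaled reads in Input and 1243, 1378 and 1243 in Positive. It was 1.78-fold higher in Positive, with no overlap, and its log2 fold change was 0.83 ± 0.08 (SE, edgeR adjusted p-value 3.6e-06). Rpl7 itself (chromosome 1, 16101295 to 16104662, minus strand) had 2253, 2129 and 2317 in Input and 2961, 3124 and 2813 in Positive, a log2 fold change of 0.41 ± 0.08 (SE, edgeR adjusted p-value 0.00078). Rpl18, a 60S protein, was also called, with a log2 fold change of 0.22 and an edgeR adjusted p-value of 0.041. At 1.17-fold it was under the fold limit. Its call was lost with DESeq2, with limma, with at least 100 scaled reads and under total count scaling. It was also lost without any single library except the Positive library of 208.

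The call of Rps23 depended on single libraries. Rps23, a protein of the decoding centre, had 876, 656 and 704 scaled reads in Input and 855, 1085 and 885 in Positive, so that the fractions overlapped. Its log2 fold change was 0.34 ± 0.12 (SE, edgeR adjusted p-value 0.038). The adjusted p-value was 0.164 without the Input library of animal 207, 0.128 without that of 208 and 0.173 without the Positive library of 207, and it was 0.092 under total count scaling, 0.12 with limma and 0.060 with at least 100 scaled reads.

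Rps27l, a paralog of Rps27 that responds to p53, had 208, 142 and 147 scaled reads in Input and 166, 225 and 214 in Positive. Rpl27 had 339, 264 and 266 in Input and 353, 324 and 363 in Positive. Neither passed the test (log2 fold change 0.29 and 0.26, edgeR adjusted p-value 0.22 and 0.13), and Rpl27 passed without the Input library of animal 201 (log2 fold change 0.39, adjusted p-value 0.036). That library was more than 25% above both other Input libraries in 6 members, among them Rpl17, Rpl27, Rpl31, Rps27l and Rps27rt, and more than 20% below both in 3, Rpl14, Rpl30 and Rps3a1. No other library stood apart in this way in more than 1 member. Without it, 44 members were lower and 6 higher in Positive.

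Paralog pairs were compared next. Rpl22 and Rpl22l1 encode alternative forms of a 60S protein. Rpl22 had 1571, 1771 and 1961 scaled reads in Input and 1292, 1582 and 1481 in Positive, a log2 fold change of -0.28 (edgeR adjusted p-value 0.033) with overlapping values. The call of Rpl22 was lost without the Input library of 207 (adjusted p-value 0.086), without that of 208 (0.173), without the Positive library of 201 (0.12) and with limma (0.095). Rpl22l1 had 430, 546 and 526 in Input and 320, 340 and 326 in Positive, a log2 fold change of -0.61 (edgeR adjusted p-value 0.0011) without overlap.

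Rpl36a was lower in Positive, with a log2 fold change of -0.41 (edgeR adjusted p-value 0.019). It had 298, 301 and 357 scaled reads in Input and 238, 236 and 247 in Positive. Its call was lost without the Input library of 208 (adjusted p-value 0.107) and without the Positive library of 207 (0.056). Rpl36al, which encodes a near-identical protein from another chromosome, had 260, 300 and 263 in Input and 284, 272 and 284 in Positive, with overlapping values. Rps27rt, a retrogene of Rps27, had 541, 385 and 332 in Input and 424, 405 and 378 in Positive, again with overlap (edgeR adjusted p-value 0.79) and a log2 fold change of -0.06 that was 0.17 without the Input library of 201. Rps19bp1, a binding partner of Rps19 and not a subunit, had 286, 302 and 305 in Input and 284, 294 and 303 in Positive (edgeR adjusted p-value 0.90).

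Rps6, the 40S protein that S6 kinases phosphorylate, had 551, 543 and 528 scaled reads in Input and 498, 508 and 498 in Positive. All Positive values were below all Input values, but the log2 fold change of -0.11 ± 0.09 (SE) did not pass the test (edgeR adjusted p-value 0.35). Of its words, 94.7% occur elsewhere in the genome.

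Per length, the members with the highest levels over both fractions were Rps15, Rpl41 and Rpl8. In Input, Rps15, which lies at the 40S head, was at 7734 scaled reads per kb of transcript, Rpl41 at 6985 and Rpl8, a core 60S protein, at 5427. In Positive the levels were 4650, 3787 and 4789 scaled reads per kb. Rpl8 was thus below Rps15 and Rpl41 in Input and above both in Positive. Of their words, 60.6% (Rps15), 62.2% (Rpl41) and 8.89% (Rpl8) occur elsewhere in the genome. Reads could thus have been split with copies to unlike degrees, and levels per kb depend on the transcript model, so this order is uncertain. Rps15 had 3400, 4334 and 3867 scaled reads in Input and 2277, 2374 and 2325 in Positive, a log2 fold change of -0.73 (edgeR adjusted p-value 2.8e-05). Rpl8 had 4154, 5004 and 4698 in Input and 4111, 4085 and 4031 in Positive, a log2 fold change of -0.18 (edgeR adjusted p-value 0.092), which passed the test without the Input library of 201 (0.033) and under total count scaling (0.023).

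Fold changes followed coding length. Of 11 members with a coding sequence under 300 bases, 9 were lower and 0 higher in Positive, with a median log2 fold change of -0.73. Of 30 members with 300 to 449 bases, 21 were lower and 1 higher, with a median of -0.41. Of 19 with 450 to 599 bases, 7 were lower and 1 higher (median -0.18), and of 19 with 600 to 899 bases, 6 were lower and 2 higher (median -0.11). The 3 members of 900 bases or more, Rpl3, Rpl4 and Rplp0, included 0 that were called. The median under 300 bases was -0.63, -0.72 and -0.74 in animals 201, 207 and 208, and from 600 to 899 bases it was -0.06, -0.15 and -0.14.

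Across the 82 members, the Spearman correlation of log2 fold change and coding length was 0.49 (Pearson 0.50 with log2 length). This is a description across genes, which share the same 6 libraries and are not independent replicates. It was 0.61, 0.43 and 0.45 with the log2 ratio of animals 201, 207 and 208, 0.59 among 60S and 0.35 among 40S members. With whole transcript length it was 0.36, with GC content -0.14 and with the share of words found elsewhere in the genome -0.01. Among short members, Rps27l and Rps27rt, of 252 coding bases each without the stop codon, did not follow and had log2 fold changes of 0.29 and -0.06. Of the words of Rps27rt, 91.3% occur elsewhere in the genome, so its reads could have been split with copies and its value is uncertain. The rows of Rps27rt and Rps27 were not summed.

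Other protein-coding genes showed a smaller gradient in the same direction. Of 293 with under 300 coding bases, 46.1% were lower and 10.9% higher in Positive, with a median log2 fold change of -0.31. Of 593 with 300 to 449 bases, 31.7% were lower and 13.5% higher (median -0.16), and of 10154 with 900 bases or more, 17.5% were lower and 27.6% higher (median 0.05). Across all 13683 of them the Spearman correlation with coding length was 0.11. Measured from the trend of these genes at the same coding length, the median of the members was -0.14 in place of -0.28, and 53 of the 82 lay below the trend. With the trend on transcript length and GC content removed, the median was -0.11. This value and the correlation with transcript length depend on the 1 transcript model used per gene. Some models are far longer than their coding part, such as Rps15a (5130 against 390 bases) and Rps20 (3706 against 357). The part of coding length in the difference between fractions was not tested.

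**Figure D4:**
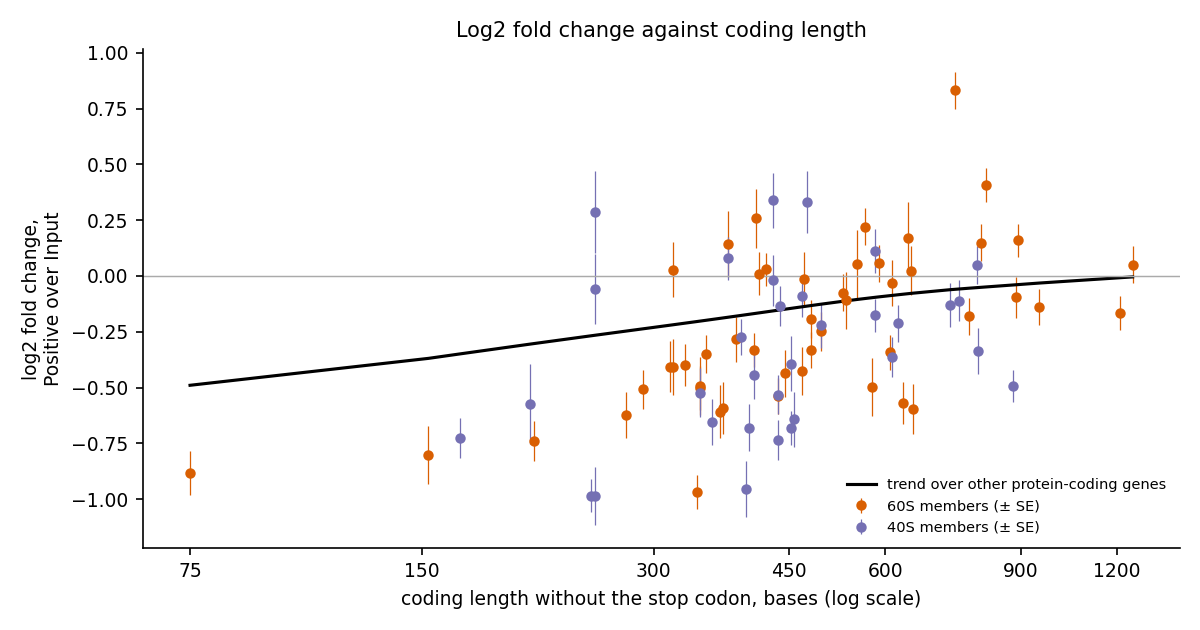
Log2 fold change (Positive over Input, ± SE, y axis) against coding length in bases without the stop codon (x axis, log scale) for 60S members in orange and 40S members in purple, with the smoothed trend over 13683 other protein-coding genes as a black line. Members under 300 bases lie at a median of -0.73 and those of 600 to 899 bases at -0.11. Other genes of these lengths have medians of -0.31 and -0.02, and the line runs from -0.49 at 75 bases to -0.0043 at 1257.

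The start regions of the members were read from RefSeq promoter windows (GRCm38.p6), which matched 62 of the 82 by symbol. The windows below show 15 bases on either side of the annotated start on the gene's strand, with pyrimidine runs of at least 5 in capitals. They were chosen to set members with long runs beside Rpl7l1 and Rps19bp1, which have none.
Rps27, chr3:90213634-90213663, minus: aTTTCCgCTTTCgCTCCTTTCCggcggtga
Rpl38, chr11:114668565-114668594, plus: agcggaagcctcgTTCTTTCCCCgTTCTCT
Rplp2, chr7:141447636-141447665, plus: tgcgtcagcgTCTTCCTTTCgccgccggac
Rpl7a, chr2:26910792-26910821, plus: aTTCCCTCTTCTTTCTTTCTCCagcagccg
Rps6, chr4:86857353-86857382, minus: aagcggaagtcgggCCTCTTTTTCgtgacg
Rpl7l1, chr17:46782642-46782671, minus: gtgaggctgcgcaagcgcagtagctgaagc
Rps19bp1, chr15:80264292-80264321, minus: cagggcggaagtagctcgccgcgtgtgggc
Within 30 bases of the start on the gene's strand, CTTTC was found in 21 of the 62 members (33.9%). It was found in 9.18% of all 27025 genes with promoter windows. Among the 10686 protein-coding genes of the table that matched by symbol, it was found in 8.03%. A gene was counted if any of its windows held the letters. CCGGAAG, which holds the GGAA core bound by ETS factors, was found on either strand from 250 bases before to 50 after the start in 38.7% of members, against 9.93% and 18.4%. TATAAA, from 50 bases before the start on the gene's strand, was found in 1.61% of members, against 3.15% and 1.74%.

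Members with and without these letters both leaned to lower values in Positive. Of the 21 with CTTTC, 12 were lower and 1 higher (median log2 fold change -0.27), and of the 41 without, 20 were lower and 2 higher (median -0.18). Of the 24 with CCGGAAG, 14 were lower and 0 higher (median -0.39), and of the 38 without, 18 were lower and 3 higher (median -0.14). Rpl7a, with the longest run shown, had a log2 fold change of 0.15 and was not called (edgeR adjusted p-value 0.15), whereas Rpl38 was at -0.74 (edgeR adjusted p-value 2.6e-05).

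Rpl10a encodes the protein that carries the EGFP tag in NuTRAP, so reads of the endogenous gene and of the transgene cannot be told apart within the L10a sequence. Rpl10a (chromosome 17, 28328471 to 28331032, plus strand) had 531, 464 and 443 scaled reads in Input and 509, 508 and 444 in Positive. The values overlapped, and the log2 fold change was 0.02 ± 0.11 (SE, edgeR adjusted p-value 0.88). Rpl10a-ps1 (chromosome 1, 64993951 to 64994604, minus strand) is a processed pseudogene of Rpl10a, that is, a copy of its mRNA without introns. It is no member and was singled out after its values were seen.

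The row of Rpl10a-ps1 had 663, 776 and 756 scaled reads in Input and 1330, 1319 and 1279 in Positive. All Positive values were above all Input values, and the log2 fold change was 0.84 ± 0.09 (SE, edgeR adjusted p-value 5.0e-06). Of the 42-base words of Rpl10a-ps1, 99.0% also occur in the Rpl10a transcript, and 88.2% of the words of Rpl10a occur in Rpl10a-ps1. Summed over both rows, there were 1194, 1240 and 1198 scaled reads in Input and 1839, 1827 and 1723 in Positive, with a mean log2 ratio of 0.57 ± 0.05 (SD, n = 3 animals). Reads over L10a sequence were thus higher in Positive in each animal once both rows were counted, while the Rpl10a row alone did not pass the test.

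**Figure D5:**
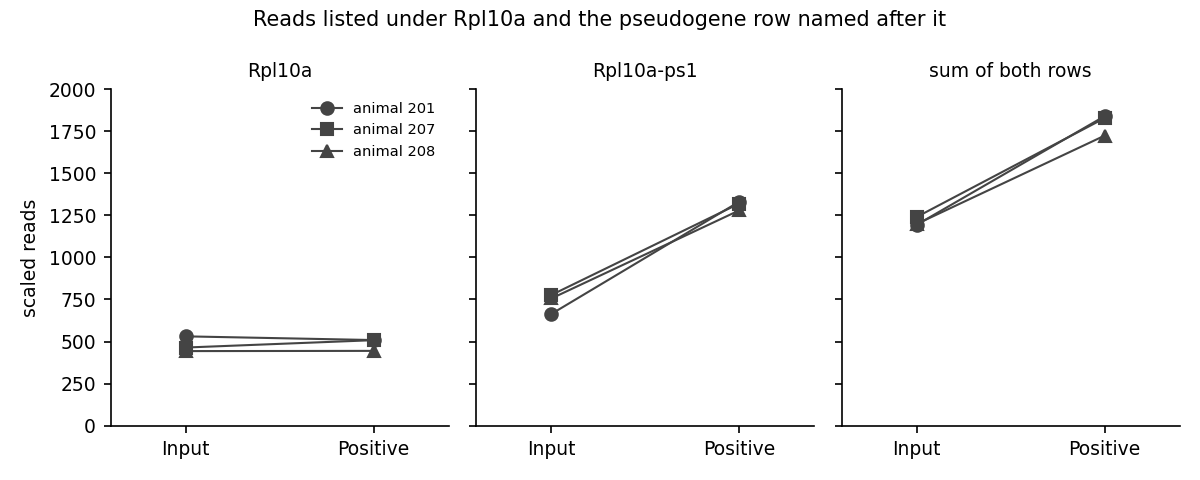
Scaled reads (y axis, from 0) of Rpl10a, of Rpl10a-ps1 and of their sum in Input and Positive, with lines joining the libraries of an animal. Rpl10a stays between 443 and 531, Rpl10a-ps1 goes from 663 to 776 up to 1279 to 1330, and the sum from 1194 to 1240 up to 1723 to 1839.

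Other members also share sequence with copies. The table held 51 rows named as pseudogenes of ribosomal protein genes, 4 of them typed protein coding, which held 0.087 ± 0.001% of the Input and 0.081 ± 0.002% of the Positive reads (SD, n = 3). Of the 51, 11 were lower and 3 higher in Positive, against 22% and 24% of all genes, and their median log2 fold change was -0.16. Of the 36 members with such rows, 8 had more reads in these rows than in their own, namely Rpl10, Rpl10a, Rpl14, Rpl19, Rpl36a, Rpl9, Rps12 and Rps6. After adding the pseudogene rows, the median of the mean log2 ratios over the 36 members was -0.18, against -0.19 for the genes alone. The mean log2 ratio changed sign in Rpl9, Rpl17 and Rpl28, of which Rpl17 and Rpl28 were near 0 both with and without their copies. Rpl9 went from a mean log2 ratio of -0.49 ± 0.11 alone to 0.09 ± 0.22 (SD, n = 3 animals) with its 3 pseudogene rows. The lower level of Rpl9 is uncertain for this reason. Rps12 stayed low with its copies, at -0.80 ± 0.10, as did Rpl14, at -0.45 ± 0.08. Among the members called higher, Rps23 went from 0.34 ± 0.38 alone to 0.16 ± 0.21 and Rpl18 from 0.22 ± 0.07 to 0.17 ± 0.06 (SD, n = 3 animals). Rpl7 was at 0.41 with and without its copy, and Rpl7l1 had no such row.

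Among the 25 members with under 50% of their words found elsewhere in the genome, 14 were lower and 1 higher in Positive, with a median log2 fold change of -0.27. Among the 57 others, 29 were lower and 3 higher, with a median of -0.33. The coding-length correlation was 0.52 in the 25 members. The share counts words of the whole transcript model, so a long untranslated part lowers it. Rps15a, with 390 coding bases in a model of 5130, was at 7.41%, and Rps20, with 357 in a model of 3706, was at 11.7%. Reads of the coding parts of such members could still have been split with copies. The effect of copies on these counts was not tested.

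Ribosomal proteins whose symbols fall outside the rule were mixed. Rpsa, a 40S protein, had 1955, 1896 and 1977 in Input and 1490, 1499 and 1581 in Positive, a log2 fold change of -0.35 (edgeR adjusted p-value 0.0017). Fau, a fusion of a ubiquitin-like protein with a 40S protein, had 102, 86.6 and 84.7 in Input and 116, 123 and 177 in Positive, a log2 fold change of 0.60 (edgeR adjusted p-value 0.028). The call of Fau was lost without the Input library of 207 (adjusted p-value 0.087) or 208 (0.091) or the Positive library of 208 (0.098). Rack1, a scaffold on the 40S head, had 2143, 2256 and 2482 in Input and 2585, 2796 and 2523 in Positive, a log2 fold change of 0.20 that did not pass (edgeR adjusted p-value 0.062), and passed with the animal as a block (0.048) and without the Positive library of 208 (0.028).

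Other RNAs known to begin with an oligopyrimidine tract, mRNAs together with non-coding snoRNA hosts, were examined as a separate list. The counts and the median below cover both kinds. Of 18, 4 were lower (22.2%) and 6 higher (33.3%) in Positive, against 22% and 24% of all genes, and their median log2 fold change was 0.02, against -0.01 for all genes. The difference from the ribosomal proteins was not tested. The elongation factor Eef2 had 16213, 14998 and 15457 scaled reads in Input and 19719, 18956 and 19372 in Positive, a log2 fold change of 0.31 (edgeR adjusted p-value 0.0078), which was 0.055 without the Input library of 207 and 0.052 without that of 208. The count of higher genes on the list was 2 without either of these libraries. Eef1a1, which delivers aminoacyl-tRNA, had a log2 fold change of 0.22 (edgeR adjusted p-value 0.0499), and its call was lost with the animal as a block (0.07), under total count scaling (0.184), with limma (0.081), with at least 100 scaled reads (0.065) and without any of 5 single libraries, all but the Positive library of 208 (highest adjusted p-value 0.176). The non-coding snoRNA hosts Gas5 and Snhg8 were lower, with log2 fold changes of -0.86 and -1.28 (edgeR adjusted p-value 3.6e-05 and 1.1e-05). Snhg8 had 246, 269 and 241 scaled reads in Input and 104, 105 and 103 in Positive.

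Ribosome assembly factors, which process rRNA and build the subunits in the nucleolus, were more often higher than lower. Of 26, 13 were higher and 1 lower in Positive, against 24% and 22% of all genes, and their median log2 fold change was 0.29. The difference from the ribosomal proteins was not tested. Pes1, of the PeBoW complex of large-subunit assembly, had 651, 608 and 636 scaled reads in Input and 1173, 1268 and 1101 in Positive, a log2 fold change of 0.90 (edgeR adjusted p-value 2.8e-06). Tsr1, a factor of 40S maturation, was at 0.54 and the nucleolar proteins Nop53 and Ncl were at 0.33 and 0.31 (edgeR adjusted p-value 0.00041, 0.0058 and 0.017). Ncl did not pass without the Input library of 201 (0.075), with limma (0.072) or under total count scaling (0.059).

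Of 15 genes of the mTORC1 and LARP1 pathway, 4 were higher (26.7%) and 2 lower (13.3%), against 24% and 22% of all genes, and their median log2 fold change was -0.04. Mtor, the kinase of the complex, had 1841, 1622 and 1724 scaled reads in Input and 1116, 858 and 851 in Positive, a log2 fold change of -0.88 (edgeR adjusted p-value 2.5e-05). Eif4ebp1, which blocks cap-dependent initiation when mTORC1 is off, had 33.1, 23.5 and 23.1 in Input and 113, 122 and 66.2 in Positive, a log2 fold change of 1.93 (edgeR adjusted p-value 0.00014). Larp1, which binds the oligopyrimidine tract, was at 0.23 (edgeR adjusted p-value 0.022), and Tsc2, an inhibitor of the pathway, at 0.01 (edgeR adjusted p-value 0.93). The call of Larp1 was lost without the Input library of 201 (0.074) or 208 (0.093) and without the Positive library of 201 (0.063), with limma (0.079) and under total count scaling (0.107). Of the list, 1 gene was lower without the Input library of 208 or the Positive library of 201 or 208, 4 were lower without the Positive library of 207, and 2 were higher without the Input library of 201.

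The 10 Rps6k kinases had 3 higher and 1 lower members, against 24% and 22% of all genes, and a median log2 fold change of 0.14. Rps6ka1, a kinase downstream of ERK, had 226, 196 and 217 scaled reads in Input and 2776, 3038 and 2268 in Positive, a log2 fold change of 3.66 (edgeR adjusted p-value 2.1e-10). Rps6ka3 was at 0.71 and Rps6ka2 at -0.26 (edgeR adjusted p-value 0.00012 and 0.023). Rps6ka2 did not pass without the Input library of 207 or 208 or the Positive library of 201 or 207 (adjusted p-values of 0.075, 0.097, 0.055 and 0.088) or with limma (0.063), and with the animal as a block 2 of these kinases were lower. Mitochondrial ribosomal proteins, which build the separate ribosome of mitochondria, had 12 lower (15.4%) and 4 higher (5.13%) of 78, against 22% and 24% of all genes, and a median of -0.01. Mrpl39 was at 0.60, Mrps10 at -0.60, Mrps26 at -0.47 and Mrps34 at -0.01 (edgeR adjusted p-value 0.0010, 0.0044, 0.00065 and 0.93). On this list 6, 5, 5, 7 and 7 genes were lower without the Input library of 207 or 208 or the Positive library of 201, 207 or 208, and 2, 1 and 2 were higher without the first, the second and the third of these.

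Several lists of cell type markers moved with the fractions as well. Of 5 microglial markers written by hand (Cx3cr1, P2ry12, Tmem119, C1qa and Csf1r), 5 were higher in Positive, and their summed scaled reads were 2672 to 2816 in Input and 56886 to 82825 in Positive. Of 6 border macrophage markers, which the Cx3cr1 promoter can also mark, 6 were higher (168 to 233 against 2449 to 5270), as were 6 of 6 endothelial markers (1283 to 1672 against 3783 to 7429). Erythroid markers were lower in 5 of 5 (3741 to 5531 against 668 to 1441), choroid plexus markers in 4 of 4 (26870 to 36070 against 6613 to 8010) and nuclear long non-coding RNAs in 4 of 5 (116140 to 133310 against 44318 to 65742). In lists from cell sorting, 134 of 182 oligodendrocyte and 85 of 138 astrocyte markers were lower, against 22% of all genes. Of 98 neuronal markers 18 were lower and 21 higher, near the 22% and 24% of all genes, and their summed scaled reads were 397610 to 407940 in Input and 358550 to 406800 in Positive. Of 6 mural markers 0 were higher and 1 lower, and of 4 ependymal markers 0 were higher and 0 lower. Of the 6 lymphocyte and 4 neutrophil markers 0 were in the table. Of the 4 monocyte markers 1 was, and it was called higher in Positive at few scaled reads (2.10 to 12.2 against 20.8 to 24.7). The part of these cell types in the levels of ribosomal protein genes was not tested.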

How the data were processed

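Hippocampal TRAP RNA of 3 mice was sequenced as directional, poly(A)-selected libraries of 50-base read pairs, 1 Input and 1 Positive library per animal, and groups follow the fraction label. The authors trimmed 2 and 6 bases from the read ends, aligned to mm10 in Strand NGS with strand, and normalized with DESeq (no version given in the sources used here). How reads with several matches were placed is not given in the sources used here. The deposited raw columns are expected counts, which need not be whole, for 15388 genes. The deposited normalized columns are log2 values relative to the Input median, and were used in 1 alternative only.

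Rounded expected counts went into the quasi-likelihood test of edgeR (4.0.16, under R 4.3.3) without pairing. For RNA sequencing, the study's methods name a t-test and analyses of variance and do not mention pairing. Size factors were RLE, genes needed more than 20 scaled reads throughout 1 of the fractions, and p-values of the 15344 genes left were adjusted together by Benjamini-Hochberg. The replicate numbers are animals, so the samples are paired: deviations from the group means correlated at 0.194, 0.058 and 0.120 within animals 201, 207 and 208. Ratios per animal used a pseudocount of 1. Coding lengths came from GENCODE M21, and exact 42-base words were searched in GRCm38, which has the coordinates of mm10. Trends were smoothed by lowess with a span of 0.5. Alternatives used DESeq2 1.42.0 and limma 3.58.1. Values in every library were given for the 6 highest and 6 lowest members, the stalk genes, paralogs and partners, Rpl10a and Rps6. They were also given for the 3 members highest per kb and for ribosomal proteins outside the rule. Up to 4 genes per related list were chosen by level and fold change, and many of these are given by fold change alone. Some genes that these rules took are not reported here. Other genes were named after their values were seen. Members and lists were chosen with earlier results of these data known.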

Additional observations from a re-analysis of the deposited data

How the results depend on the processing

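Counts of members lower in Positive ran from 37 to 50 over the alternatives that kept all members, and every median of the members stayed below 0. Total count scaling moved the median of all genes from -0.013 to -0.089. The test rests on 3 animals per fraction, reads of copies cannot be assigned with certainty, and differences per member of about the size of their SE were not detectable at this depth. The cause of the shifts below was not tested.

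Members higher in Positive numbered 2 under total count scaling, with at least 100 scaled reads and with limma, and 2 to 6 with single libraries left out, when lower calls numbered 37 to 44. Restricted to members with under 50% of words elsewhere, chosen after seeing the data, 14 were lower and 1 higher. With at least 100 scaled reads, the medians of the members, the 60S and the 40S members were -0.31, -0.27 and -0.36. Under total count scaling they were -0.36, -0.32 and -0.41, and with the trend on transcript length and GC content removed -0.11, -0.079 and -0.18. With limma the medians were -0.29 for all and -0.26 for 60S members. With the trend on coding length removed, an alternative chosen after seeing the data, the median of the members was -0.14. With single libraries left out, the ranges were -0.33 to -0.26, -0.31 to -0.20 and -0.42 to -0.29.

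With the animal as a block, which keeps the pairing, 44 members were lower and 5 higher, the 40S median was -0.33, 2 ribosomal proteins outside the rule were higher and 2 Rps6k kinases lower. Among the genes given here, the block changed the calls of Rack1 and Eef1a1 and turned no direction. The difference in the share of reads was -0.175 percentage points without the 100 most abundant other genes, and -0.164 to -0.135 with single animals left out.

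Related lists under total count scaling: the ribosomal proteins outside the rule had a median of -0.15. Oligopyrimidine-tract RNAs had 7 lower and 3 higher, and assembly factors 2 lower and a median of 0.22. The mTORC1 pathway had 6 lower, 2 higher and a median of -0.12. Mitochondrial ribosomal proteins had 2 higher and a median of -0.085, and Rps6k kinases 2 lower and a median of 0.067. With at least 100 scaled reads, the mTORC1 pathway had 1 lower and the mitochondrial list a median of -0.034. With limma, 3 oligopyrimidine-tract RNAs and 2 mTORC1 genes were higher, and 0 Rps6k kinases lower. With the trend on transcript length and GC content removed, the mitochondrial median turned to 0.077. With single libraries left out, the pathway of mTORC1 had 1 to 4 lower, 2 to 4 higher and medians of -0.10 to 0.042 (0.042 without the Positive library of 208), and the mitochondrial list 5 to 8 lower and 1 to 5 higher. Oligopyrimidine-tract RNAs had 2 to 6 higher and ribosomal proteins outside the rule 0 to 1 higher. Rps6k kinases had 0 to 1 lower, and assembly factors had medians of 0.22 to 0.29.

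Among single genes, values near 0 turned sign. Rpl10a was -0.0031 with at least 100 scaled reads, -0.053 under total count scaling and -0.029 to 0.10 with single libraries left out. Rpl36al was -0.049 under total count scaling and -0.0086 to 0.097 with single libraries left out. Tsc2 was -0.015, -0.065 and, with limma, -0.0078, and -0.071 to 0.068 with single libraries left out. The same ranges were -0.027 to 0.023 for Mrps34, -0.047 to 0.0014 for Rps19bp1 and -0.20 to 0.17 for Rps27rt.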
